A study of Drosophila melanogaster with 4 samples.

Results

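The genes described here serve the nuclear arm of the piRNA pathway, which keeps transposons silent in germ cells. They are piwi, its co-silencing partners Panx, nxf2, arx and mael, and the genes of the Rhino complex, rhi, del and cuff. The members were picked by name and not by a filter on their values, though with earlier results of these data known. Each of the 8 was found among the 17103 genes of the deposited table. All 8 were read in embryonic gonads, and none of the 6 that could be tested passed the threshold between control and Phf7 mutant gonads. Phf7 itself did not pass in the same fit. nxf2 and del had lower values in both mutant libraries than in both controls, whereas rhi and arx had higher values in both mutant libraries. Such a lack of overlap between genotypes, in either direction, was common and was found in 32.9% of all 7653 genes tested.

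Gonads came from stage 17 embryos kept at 25 °C for 18 to 22 h, of the genotype vas-GFP (2 control samples) or Phf7[DN18]; vasGFP (2 Phf7 mutant samples). Both genotypes thus carry the vas-GFP transgene, which labels germ cells. GFP-positive gonads were sorted mostly intact, so germ cells and somatic cells were read together, and both sexes were included. RNA was read from the ends of polyadenylated transcripts (QuantSeq), and the question was which genes depend on Phf7, a histone reader of the male germline.

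As background, Piwi is an Argonaute protein that carries a piRNA into the nucleus, where it finds nascent transposon transcripts. Panx (Panoramix) and nxf2, a protein related to mRNA export receptors, act with Piwi to bring in H3K9 methylation, arx (Asterix) is a zinc finger protein that binds Piwi, and mael (Maelstrom) is needed for transcriptional silencing and lies downstream of or beside this mark. Rhi (Rhino) is a relative of HP1 that binds methylated H3K9 on piRNA clusters, the loci that give rise to piRNAs. Del (Deadlock) links Rhi to the transcription machinery, and Cuff (Cutoff) protects cluster transcripts from splicing and early termination. In the ovary rhi, del and cuff act in germ cells, while piwi and its silencing partners also act in somatic follicle cells.

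The table holds 1 mean normalised read count per gene over the 4 libraries. Because that mean is printed to 15 digits, the whole reads of each library could be solved for, and all 11208 genes with a mean count up to 1000 had exactly 1 solution. The libraries are called control a and b and mutant a and b here, since they carry no replicate number, and paired values are given in the order a, b. These genes held between 1536698 and 2130832 reads per library, and 17.4% of the mean total. Phf7 itself had 749 and 495 reads in controls, against 9 and 44 in mutants, which goes with the labels, although it is not known here whether the read end of its transcript lies in the deleted part. All 11 germ cell markers and all 10 somatic gonad markers were detected. Muscle, neuron and midgut markers were read too, and the summed level of the 7 midgut markers with known reads spanned 8.39-fold between libraries, with the highest sums in control b and mutant a. Of the 5 fat body markers 2 were detected, Lsp2 and apolpp, while Fbp1, Lsp1alpha and Adh were listed at a mean count of 0. All 6 hemocyte markers were detected, and their summed level spanned 3.01-fold between libraries.

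Several members share their positions with other genes or with transposons. Coordinates are those of the Ensembl annotation BDGP6.54 (dm6 coordinates). piwi lies on 2L at 10982205 to 10987420 and del on 2L at 21145137 to 21148546. nxf2 lies on 3L at 16576859 to 16580306, arx on 3L at 18900595 to 18901554 and mael on 3L at 22721203 to 22726234. Panx (21310368 to 21312354), rhi (17628491 to 17633516) and cuff (11886067 to 11887603) lie on 2R. mael and cuff are on the plus strand and the other members on the minus strand.

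The ends of 6 members run into a gene on the opposite strand, which matters because the reads come from transcript ends. The shared stretch is 191 bp for piwi with SCAR, 44 bp for Panx with Arms, 36 bp for cuff with ERp60, 13 bp for nxf2 with mbf1, 10 bp for del with pths and 1 bp for mael with CG14450. These partners were at mean counts of 276 for SCAR, 180 for Arms, 3499 for ERp60, 2120 for mbf1, 2475 for pths and 58.0 for CG14450. ERp60, mbf1 and pths were thus 29.0-fold, 7.25-fold and 14.3-fold above cuff, nxf2 and del. The strand setting of the counting is not given in the sources used here, and the part of these partners in the members' values was not tested. mael also shares 246 bp of exon with CG14451 on the other strand, which had 108 and 136 reads in controls, against 366 and 234 in mutants. rhi lies wholly within CG10936 on the same strand with no exon in common, and CG10936 had 47 and 38 reads in controls, against 34 and 51 in mutants. arx overlaps no annotated gene.

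Annotated transposon copies lie inside 3 members. In nxf2 a TART-A copy, a telomeric retrotransposon of Drosophila, shares 700 bp with the gene on the same strand and 630 bp with its exons. The introns of piwi hold a Cr1a copy of 143 bp and INE-1 copies of 117 and 292 bp, and those of mael hold 3 transposon copies, the longest an INE-1 copy of 781 bp, all without exonic overlap. That stretch does not reach the end of the gene, and whether reads of other TART-A copies were counted to nxf2 was not tested.

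piwi and mael were the most abundant members and the Rhino complex genes were read at lower levels. In the authors' mean over the 4 libraries piwi had 1540 normalised reads and mael 1203, at percentiles 92.8 and 90.5 of all detected genes. nxf2 had a mean of 292 and rhi of 290, followed by del with 173, arx with 169, Panx with 154 and cuff with 121. A transcript gives reads from its end only in these libraries, so a level was not divided by length, and it compares transcript ends between genes as far as each end was captured alike. The lowest member, cuff, was still at percentile 54.5. Neighbours in this order overlapped between libraries from nxf2 to rhi and from del through arx and Panx to cuff, while rhi lay above del and mael above nxf2 in each library.

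**Figure D1:**
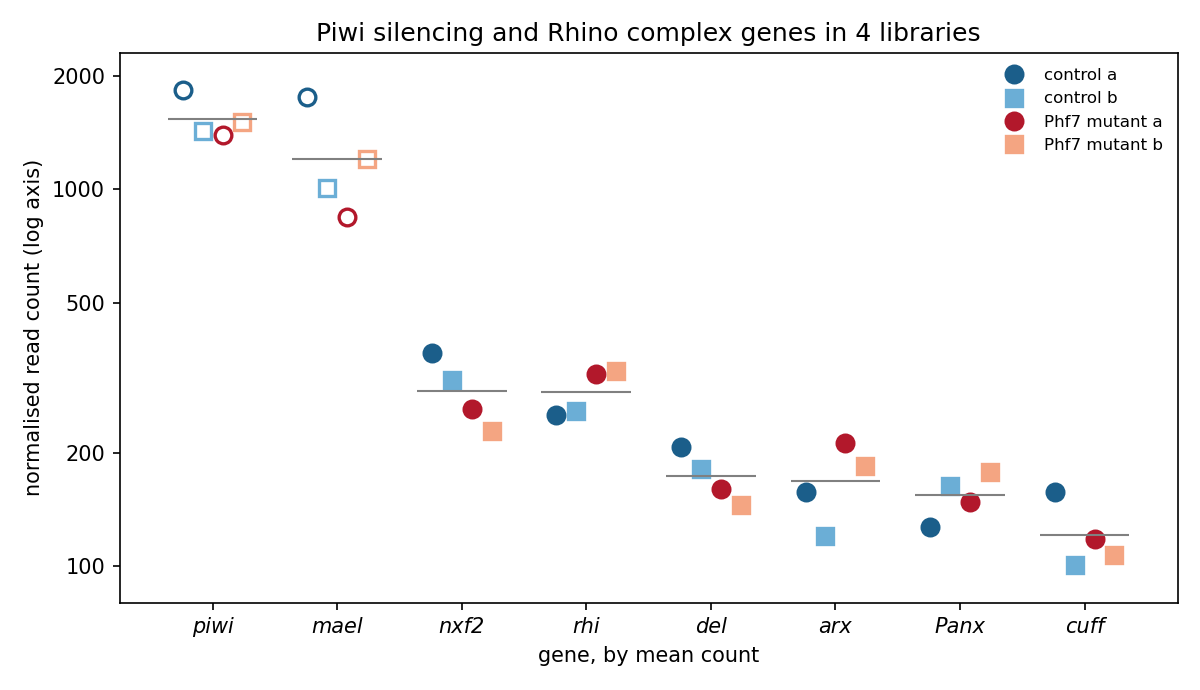
Normalised read counts of the 8 members (log axis) in the 4 libraries, with the authors' mean over the libraries as a grey line; open symbols mark piwi and mael, whose reads had several solutions. nxf2 and del sit lower in both Phf7 mutant libraries and rhi and arx higher, while Panx, cuff and the candidate sets of piwi and mael overlap between genotypes.

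For piwi and mael the printed mean allowed more than 1 set of reads. piwi had 4 sets and mael 2, and the set with the least spread over the libraries is given as the candidate. For piwi that set is 1803 and 1175 reads in controls, against 1571 and 1694 in mutants, or 1832, 1428, 1392 and 1509 normalised reads. The genotypes overlapped in it, with the highest value in control a. In the other piwi sets the highest library was 5.92-fold to 24.8-fold above the lowest, a spread of at least 5.92-fold being found in 1.75% of the 1199 genes with a mean count of 500 to 1000. For mael the set is 1731 and 831 reads in controls, against 951 and 1350 in mutants, or 1759, 1010, 842 and 1203 normalised reads. The genotypes overlapped here as well, with the highest value in control a and the lowest in mutant a. The other mael set spans 9.996-fold, with mutant a at 3099 and mutant b at 310 normalised reads, and a spread of at least that size was found in 1.33% of the same genes. Both genes were left out of the test for this reason.

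Among the co-silencing partners nxf2 was lower in mutants in every library and arx was higher. nxf2 had 362 and 257 reads in controls, against 295 and 256 in mutants, which is 368 and 312 against 261 and 228 normalised reads. The genotypes did not overlap, and the mean of the controls was 1.39-fold that of the mutants. arx had 155 and 99 reads in controls, against 240 and 207 in mutants, which is 158 and 120 against 213 and 184 normalised reads. Both mutant libraries lay above both controls, with a mean 1.43-fold higher. Panx had 125 and 134 reads in controls, against 167 and 200 in mutants, which is 127 and 163 against 148 and 178 normalised reads. Its genotypes overlapped, control b lying above mutant a.

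In the Rhino complex rhi and del lay on opposite sides. rhi had 247 and 212 reads in controls, against 365 and 369 in mutants, which is 251 and 258 against 323 and 329 normalised reads. The libraries of each genotype lay close together and the mutants were 1.28-fold higher. del had 204 and 149 reads in controls, against 181 and 163 in mutants, which is 207 and 181 against 160 and 145 normalised reads. Both mutants lay below both controls, whose mean was 1.27-fold higher. cuff had 155 and 83 reads in controls, against 133 and 120 in mutants, which is 158 and 101 against 118 and 107 normalised reads. The controls of cuff enclosed both mutant values.

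No member passed an adjusted p of 0.05 in limma, which was fitted to log2(normalised count + 1) of 7653 genes that had known reads and a mean count of 10 or more. The log2 difference, control minus mutant, was 0.47 for nxf2 (standard error 0.27, 95% interval -0.29 to 1.23) and -0.52 for arx (standard error 0.29, interval -1.35 to 0.30), both with an adjusted p of 0.954. It was -0.36 for rhi (interval -1.05 to 0.33, adjusted p = 0.984) and 0.34 for del (interval -0.39 to 1.08, adjusted p = 0.985). For Panx it was -0.17 (interval -1.004 to 0.66) and for cuff 0.17 (interval -0.80 to 1.13), each with an adjusted p of 0.985. In fold terms the interval of nxf2 runs from 0.819 to 2.35 and that of rhi from 0.484 to 1.26, control over mutant, so a p that misses the threshold does not show equal levels in either gene. Without control a the difference of Panx became 0.00 (0.0039) and that of cuff -0.15.

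The same held over all genes tested. limma called 0 of the 7653 genes (0%), and 449 had an unadjusted p under 0.05, none of them a member. Phf7 itself, at a log2 difference of 5.16, missed the threshold with an adjusted p of 0.537 in limma. With 2 libraries per genotype this fit can thus miss even a large difference. limma-voom called 0 genes, and 391 had an unadjusted p under 0.05. The median difference was -0.01 over all genes tested and 0.00 over the 6 members, of which 3 were positive and 3 negative. Larger absolute differences than that of arx were found in 31.1% of all genes tested, and larger ones than that of rhi in 43.7%. Control values lay wholly above mutant values in 2 of 6 members (nxf2 and del), where 17.5% of all genes tested did so, and wholly below in 2 of 6 (rhi and arx), against 15.4%. In either direction 4 of 6 members were separated, against 32.9% of all genes tested. An exact permutation test of 2 against 2 libraries cannot give a p below 0.333, so no single member could pass one. In whole gonads, fewer cells of a type and less RNA per cell cannot be told apart.

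**Figure D2:**
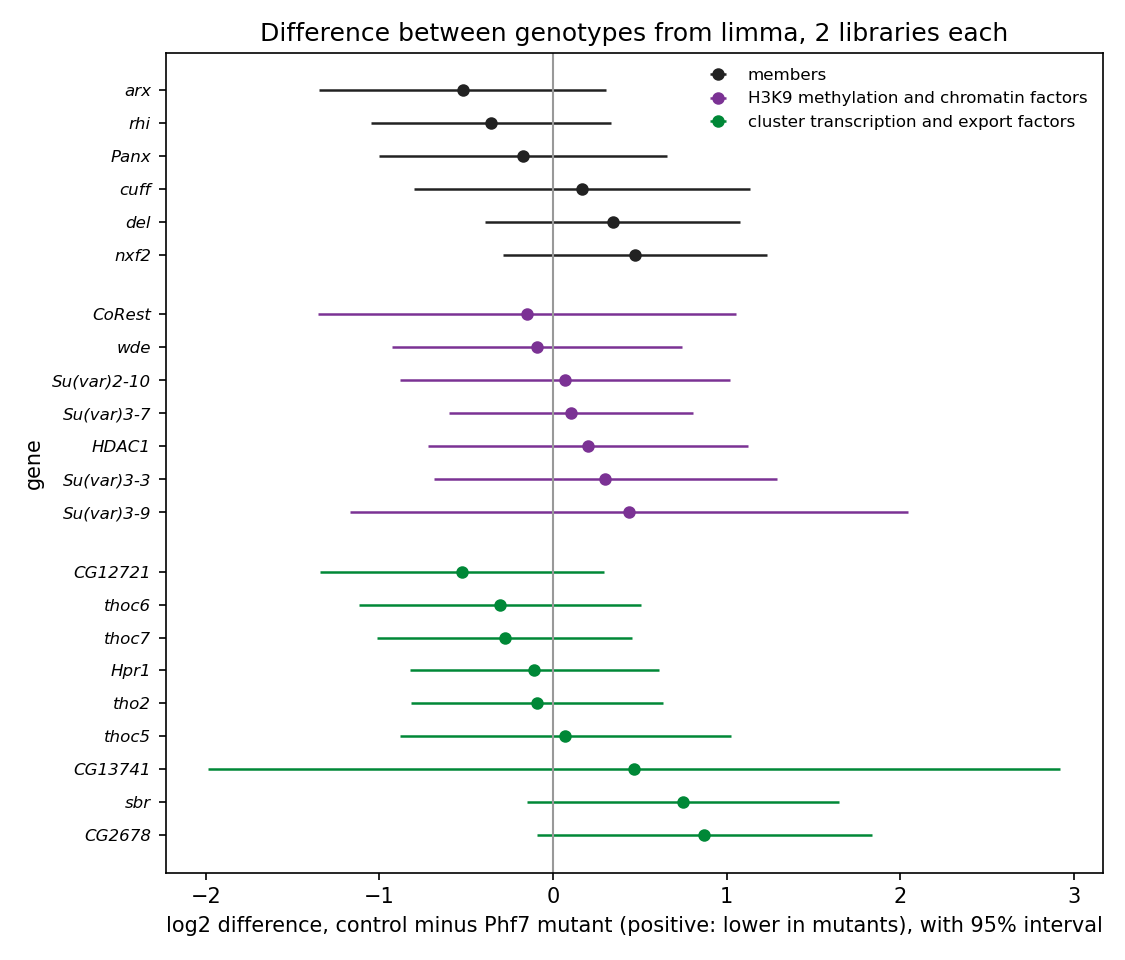
Log2 difference between genotypes (control minus Phf7 mutant, so positive values are lower in mutants) with its 95% interval from limma, for the 6 members with known reads and the tested genes of the lists of chromatin and of cluster transcription factors. Members run from -0.52 for arx to 0.47 for nxf2, and each interval shown spans 0.

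Within a library the make-up of the silencing and cluster genes can be read without any scaling between libraries. Of the reads of rhi, del and cuff together, rhi took 40.8% in control a (95% Wilson interval 36.9 to 44.7) and 47.7% in control b (43.1 to 52.4), but 53.8% in mutant a (49.99 to 57.5) and 56.6% in mutant b (52.8 to 60.3). del took 33.7% and 33.6% in controls, against 26.7% and 25.0% in mutants. The shares of both genes were separated by genotype, while that of cuff, from 18.4% to 25.6%, was not. There were 1.21 and 1.42 reads of rhi per read of del in controls, against 2.02 and 2.26 in mutants. These intervals cover counting error only, and for the share of rhi those of control b and mutant a overlapped.

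Among nxf2, Panx and arx, nxf2 held 56.4% and 52.4% of the reads in controls, against 42.0% and 38.6% in mutants. arx held 24.1% and 20.2% in controls, against 34.2% and 31.2% in mutants. nxf2 thus had 2.34 and 2.60 reads per read of arx in controls, against 1.23 and 1.24 in mutants. The ratio of nxf2 to Panx, which act together, was 2.90 and 1.92 in controls, against 1.77 and 1.28 in mutants. As these genes were compared after their values were known, the shares are a description and were not tested. In both pairs, rhi with del and nxf2 with arx, the genes were already separated in opposite directions. Their ratios therefore had to separate by genotype.

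**Figure D3:**
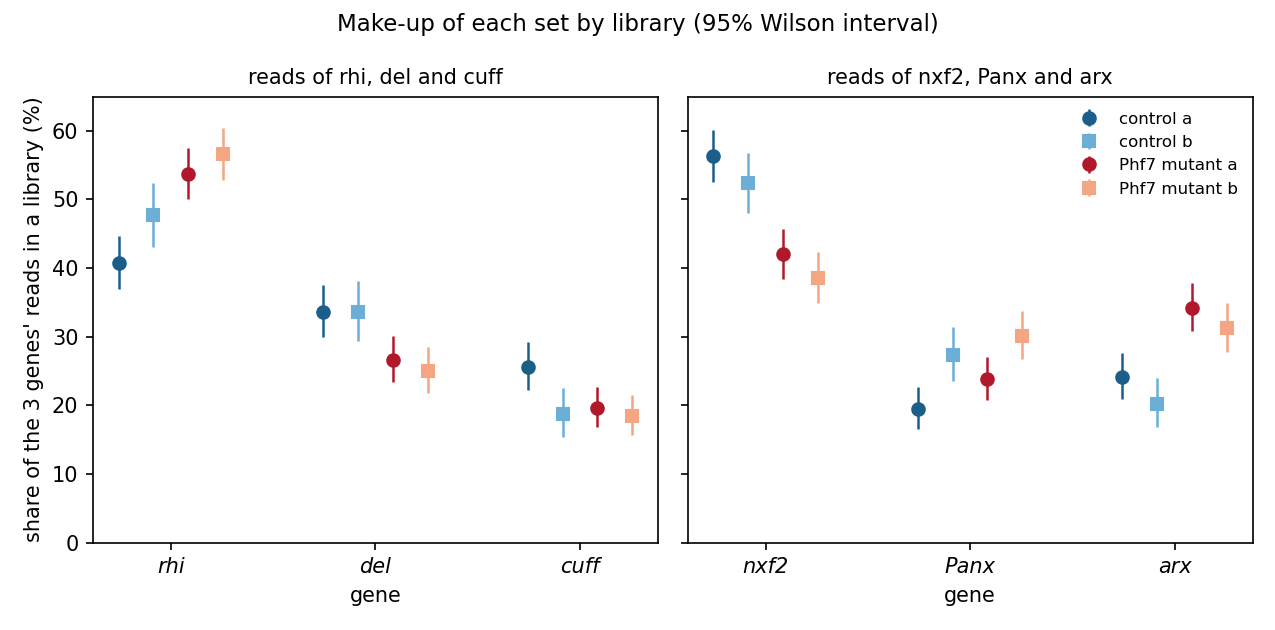
Share of each gene in the reads of rhi, del and cuff (left) and of nxf2, Panx and arx (right) in each library, in percent, with the 95% Wilson interval of counting error. rhi and arx took larger shares in both Phf7 mutant libraries than in both controls, and del and nxf2 smaller ones.

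The summed level of the members overlapped between genotypes. Summed over the 6 genes with known reads there were 1268 and 1135 normalised reads in controls, against 1223 and 1172 in mutants, so the highest sum was 1.12-fold the lowest. The coefficient of variation over the 4 libraries ran from 14.2% for Panx to 23.3% for arx, with a median of 18.2%, where counting error alone gives 5.84% for rhi and 9.09% for cuff. Over the 2216 genes with a mean count of 100 to 300 the median was 22.7%.

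The members did not share the pattern of the tissue markers that differed between libraries. All 12 muscle markers had their higher control value in library b and their higher mutant value in library a, as did 7 of 8 neuron markers and 5 of 7 midgut markers with known reads. None of the 6 members had this pattern and none had its reverse, where 35.9% and 36.7% of all genes tested did. Among markers with known reads, 1 of 7 germ cell markers, 3 of 5 somatic gonad markers and 3 of 6 hemocyte markers had the pattern. The 7 germ cell markers with known reads summed to 1905 and 1688 normalised reads in controls, against 1936 and 1966 in mutants, and the 5 somatic gonad markers to 1125 and 1222 against 1309 and 1245. Of these 7 germ cell markers 5 were themselves separated by genotype, against 32.9% of all genes tested. Values were higher in mutants for nos, stil and osk and higher in controls for zpg and pgc. Few reads lay behind osk (8 and 7 in controls, 12 and 22 in mutants) and pgc (33 and 24 in controls, 7 and 17 in mutants). limma called 0 of the 7, and pgc had an unadjusted p under 0.05. With each library scaled to the sum of these markers, nxf2, del, rhi and arx were separated by genotype in the same directions and Panx and cuff were not, against 35.2% of all genes tested. This scaling moved the libraries little, with log2 shifts of their factors from -0.15 to 0.07. Its sum lacks vas, tud, ovo and pum, whose reads per library are not known. The germ cell content of the libraries was not tested.

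**Figure D4:**
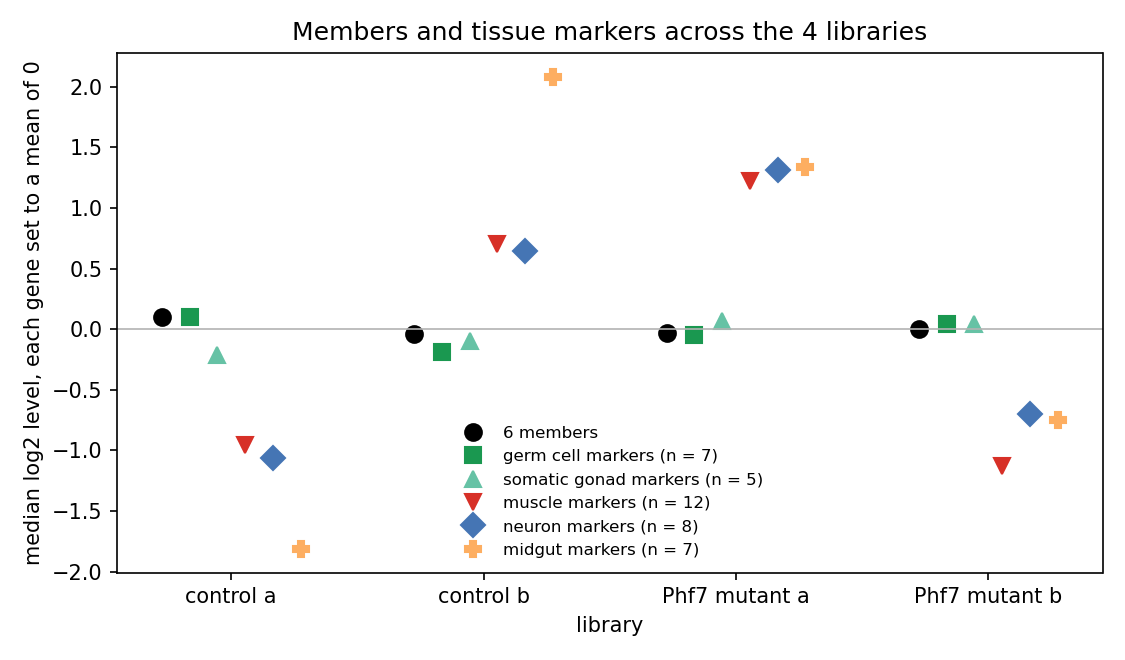
Median log2 level of the 6 members with known reads and of 5 marker lists in each library, with every gene centred on its own mean. Muscle, neuron and midgut markers are high in control b and mutant a, with medians from 0.64 to 2.08, whereas the members' median stays between -0.04 and 0.10, with members of opposite direction cancelling in it.

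The 14 genes listed as H3K9 methylation and chromatin factors were read at mean counts from 53.2 for Su(var)3-9 to 15073 for ctp. None of those tested passed the threshold. Whether each of them acts in silencing by Piwi was not tested. All 14 genes of this list were detected, with ctp (a dynein light chain that binds Panx), Mi-2 (a nucleosome remodeller) and Nxt1 (the partner of export receptors) the most abundant, Mi-2 and Nxt1 at mean counts of 3812 and 1996. Of the 14 genes 7 had known reads, limma called 0 of 7, and 5 of 7 differences were positive with a median of 0.10. The largest was that of Su(var)3-9, an H3K9 methyltransferase, with 72 and 38 reads in controls, against 31 and 74 in mutants (log2 difference 0.44, interval -1.17 to 2.05). Su(var)3-3, a histone demethylase, had 0.30 and the deacetylase HDAC1 had 0.20, and the genotypes overlapped in all 3. None of these directions held with each library left out in turn, as Su(var)3-9 became -0.18 and HDAC1 -0.04 without mutant a, and Su(var)3-3 became -0.03 without control a. Without mutant b the difference of Su(var)3-9 was 1.06. The other 7 genes had mean counts over 1000 and no known reads per library, egg among them with a mean count of 1288. wde, at a mean count of 949, had a log2 difference of -0.09 (interval -0.93 to 0.74).

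Factors that transcribe piRNA clusters or export their transcripts were read as well, and limma called 0 of the 9 genes tested, of 15 in the list, of which nxf3 was not analysed here and the others had mean counts over 1000. Trf2 and TfIIA-S, factors of transcription initiation, and CtBP, a corepressor, were the most abundant at mean counts of 15469, 5726 and 5040. CG12721, which encodes Moonshiner, the partner of Del in cluster transcription, had 84 and 54 reads in controls, against 131 and 113 in mutants. Both mutant values lay above the controls, as for rhi and opposite to del (log2 difference -0.52, interval -1.34 to 0.30, adjusted p = 0.953 in limma). sbr, the general mRNA export receptor, had 468 and 329 reads in controls, against 246 and 345 in mutants, and its normalised values were lower in both mutants (log2 difference 0.75, interval -0.15 to 1.65, adjusted p = 0.858 in limma). CG2678, listed as kipf in current annotation and known as a partner of Rhi, had 34 and 38 reads in controls, against 29 and 20 in mutants (log2 difference 0.87, interval -0.09 to 1.83, adjusted p = 0.843 in limma). With 1 library left out, the difference ranged from -0.71 to -0.34 for CG12721, from 0.50 to 0.9973 for sbr and from 0.62 to 1.12 for CG2678. As each of these genes was separated by genotype, leaving out 1 library could not reverse its direction. They were named for the largest differences of the list. Of the 9 genes tested 2 were separated with higher controls, against 17.5% of all genes tested. With higher mutants there were 3, CG12721, thoc6 and thoc7, against 15.4%. The list's differences had a median of -0.09, with 4 of 9 above 0.

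By likeness over the 4 libraries no member was nearest to another among the 4595 genes whose mean count was 100 or more. The nearest profiles, by Euclidean distance of log2 values set to a mean of 0, were CG7324 and Itp-r83A for nxf2, cv-d and CG4622 for rhi, ced-6 and CG18764 for del, CG3776 and CG7889 for arx, Prp38 and app for Panx, and cta and holn1 for cuff, at distances from 0.02 to 0.08. Within the set the closest pair was nxf2 and del, at a distance of 0.14. The nearest member to rhi was Panx, at 0.34. Over only 4 points many genes lie this close, so the likeness is a description.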

How the data were processed

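RNA of sorted gonads was measured in 2 control and 2 Phf7 mutant samples. The authors placed the 3′-end reads on dm6 with HISAT2 and tallied them per gene with htseq-count. The authors compared the groups with DESeq2. Program versions: not given in the sources used here. The deposited signal is the mean over the 4 libraries of counts divided by size factors. The deposited table also holds the authors' log2 fold change (control over mutant) with an error, a Wald statistic, a p-value and an adjusted p. None of these is printed or compared here, and only 1 use was made of them, in that the sign of the deposited log2 value at genes with 1 read in all told which recovered library is control.

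Genes with 1 read gave the value of a read in each library, and whole reads that give each printed mean were searched. All 11208 genes up to a mean of 1000 had 1 solution, against 16 of 1500 decoys (1.07%). Genes above that, 1471 in all, were not tested. limma 3.58.1 in R 4.3.3 was fitted to log2(normalised count + 1), with Benjamini-Hochberg adjustment. A run on simulated data gave every gene the same relative spread beyond counting error. It therefore does not tell how much the fit can find in these libraries. Alternatives were pseudocounts of 0.5 and 5, no filter or a mean count of 50, limma-voom, other scalings, leaving out each library and a tissue covariate. p-values measure the spread between 2 samples per genotype, with each gene's spread drawn by limma towards that of all genes tested. For rhi, whose libraries lay close together within each genotype, the standard error of 0.24 thus comes largely from other genes.

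The members and lists were chosen with earlier results of these data known. Named from the chromatin and cluster lists were genes past the threshold or, with none, the 3 with the largest difference and the 3 with the highest mean. Genes named for likeness are the 2 nearest per member.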

Additional observations from a re-analysis of the deposited data

How the results depend on the processing

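The count of members that differed between genotypes was 0 under each of the 12 alternatives run, as was the count of the other silencing and cluster genes under its alternatives. Of 72 alternative log2 differences 70 kept their direction. The others, of Panx and cuff, changed sign without control a. When 1 library was left out, Panx ranged from -0.35 to 0.00 (0.0039 without control a) and cuff from -0.15 to 0.49, and the cause was not tested. Many of the 70 could not have changed direction. Settings that alter only which genes are tested return the same difference, and a separated member cannot change sign when 1 library is left out. The lowest adjusted p of any member was 0.5003, once the level of muscle, neuron and midgut markers entered the model, which left 1 residual degree of freedom. In that model 1021 genes had an unadjusted p under 0.05, against 449 without the markers. Over all genes limma called 2 of 5658 with a mean count of at least 50 and 0 under the other settings. The count of separated members was 4 of 6 under median-of-ratios scaling (33% of all genes tested) and under germ cell marker scaling (35.2%), and 4 of 8 with the least spread sets of piwi and mael, an alternative chosen after seeing the data. Where a library was left out, the lone sample of its genotype was assumed to vary like the others. No paired analysis was possible because the recovered libraries carry no replicate number. Depth limits cuff most, with 491 reads over the 4 libraries.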

Other observations

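The cytoplasmic piRNA genes, which make and amplify piRNAs outside the nucleus, were all detected, 20 of 20, and limma called 0 of the 16 with known reads. Their differences had a median of 0.06, with 10 of 16 above 0. The genes krimp and vret, both of the Tudor family, are named with their values known, as is BoYb. These 3 had the largest differences of the list. BoYb had 13 and 61 reads in controls, against 55 and 49 in mutants, and its genotypes overlapped (log2 difference -0.53, interval -3.13 to 2.07). krimp had 203 and 175 normalised reads in controls, against 285 and 238 in mutants, and both mutant values lay above both controls. vret had 259 and 226 normalised reads in controls, against 143 and 183 in mutants, with both mutant values below both controls. Of the 16 genes 3 were separated with higher controls, against 17.5% of all genes tested, and 2 with higher mutants, against 15.4%, shares near the background.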
